A study of Mus musculus with 9 samples.

Results

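Fibroblast growth factor (FGF) signalling is described here through 8 genes: the receptors Fgfr1, Fgfr2, Fgfr3 and Fgfr4, the ligands Fgf1, Fgf2 and Fgf7, and the ligand carrier Fgfbp1. They were chosen by name, with earlier results of these data known, and all 8 were present among the 24493 genes of the deposited table. Fgfr1 rose and Fgfr4, Fgf1 and Fgfbp1 fell in both immunotherapy-resistant lines, while Fgf2 and Fgf7 rose from near 0 to low levels.

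FGFs are secreted proteins that bind their receptors together with heparan sulfate chains of the cell surface, and the paired receptors then signal through the adaptor FRS2, RAS and the kinase ERK. Sprouty and Spred proteins and dual-specificity phosphatases are switched on by this signal and damp it. Fgfr1, Fgfr2 and Fgfr3 are each spliced into an epithelial and a mesenchymal form with different ligand preferences, and in the developing pancreas FGFs from the mesenchyme support growth of the epithelium.

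The cells were mouse pancreatic tumor cells of C57BL/6 genetic background, kept in DMEM with 10% FBS without any treatment, and their RNA was sequenced. The 9 libraries form 3 groups of 3: parental cells, escape e1 and escape e2, and the series describes the escape lines as derived from the parental line and resistant to immunotherapy. The sources used here do not give the genotype beyond the background, the immunotherapy, how the lines were selected, or whether either is a clone. Levels are in TPM, a transcript abundance scaled to the library total and corrected for transcript length. How deeply each library was sequenced cannot be read from it, so the depth is unknown and no detection limit can be given.

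Between 11188 and 12039 genes reached 1 TPM per library, and tests covered the 12769 genes that did so in 3 or more libraries. Fold changes are differences of log2(TPM + 1) ± SE, a scale that understates the change of a gene near 0, and adjusted p-values are from limma over all genes tested. The threshold for a call was an adjusted p of 0.05, and "rose" and "fell" are used for called genes. Nothing in the labels says that libraries of 1 group are separate cultures, so these p-values measure no more than the spread between libraries. Most genes passed: 70.6% for e1 against parental, 73.5% for e2 against parental and 70.3% for e2 against e1. The comparisons of e1 and e2 with parental share the parental libraries.

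Summed TPM of 8 epithelial markers ran from 8508 to 9683 in parental, from 1164 to 1208 in e1 and from 1675 to 1736 in e2 libraries, and all 8 fell in both lines. The 12 fibroblast markers summed to between 17.0 and 20.1 in parental, 327 and 347 in e1 and 327 and 338 in e2 libraries, with Lum, a defining fibroblast gene, listed at 0 in every library. Of 10 tested, 7 rose and 3 were not called in e1, and 9 rose and 1, Fbln1, fell in e2. Fbln1 made up most of the parental sum, at 16.0 to 19.4 TPM, and Dcn averaged 0.148 TPM in e1 against 35.5 in e2. Leukocyte markers summed to between 2.19 and 2.996 TPM in parental, 3.003 and 4.17 in e1 and 6.57 and 7.42 in e2. Acinar markers summed to between 2.09 and 3.82, 5.799 and 9.61 and 15.8 and 17.3 TPM, and endothelial ones to at most 0.905. The 1 tested leukocyte marker, Cd68, and the 1 tested acinar marker, Cela1, rose in both lines, while Cd3e, Cpa1 and Ptf1a were listed at 0 in every library. Some markers under the filter went the other way. Csf1r averaged 0.825, 0.102 and 0.113 TPM and Prss2 0.724, 0.367 and 0.227 in parental, e1 and e2. Lyz2 averaged 0, 0 and 1.25 TPM. The rising sums thus came mainly from Cd68 and Cela1, with Lyz2 added in e2. The part of these shifts in the FGF values was not tested, and in bulk RNA fewer cells of a type cannot be told apart from less RNA per cell.

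Of the members, 6 passed the filter and Fgfr2 and Fgfr3 did not. Among the 6, 3 were called higher and 3 lower in e1 against parental, beside 35.7% higher and 34.9% lower among all genes tested. The same numbers held in e2, beside 40.8% higher and 32.7% lower. Between the lines 1 was called higher in e2 and 1 lower, beside 40.6% and 29.7%, and 4 were not called. Fgfr4, Fgf1 and Fgfbp1 passed the filter only through the parental libraries, and Fgf2 and Fgf7 only through the escape libraries, so these counts support nothing about the family.

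**Figure D1:**
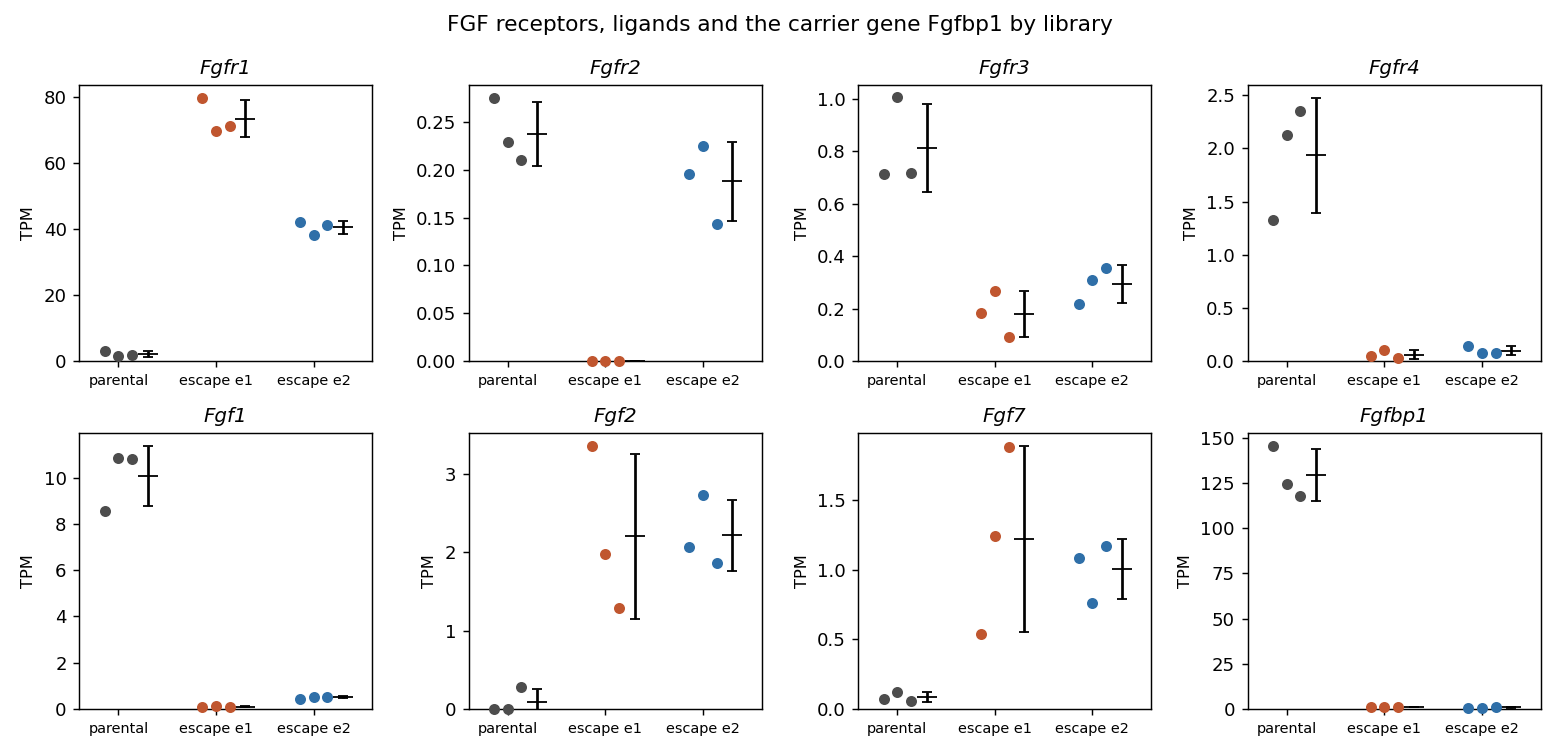
TPM (vertical axes, linear and separate for each gene) of the 8 genes in parental, escape e1 and escape e2. Points are libraries, and the bar beside them is the mean ± SD (n = 3), cut at 0. Fgfr1 stands between 38.3 and 79.7 TPM in the escape libraries and at most at 3.04 in parental ones, while Fgfbp1 falls from at least 118 TPM to at most 1.08.

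Fgfr1, a receptor typical of mesenchymal cells (chromosome 8, 25518759 to 25575718, RefSeq GRCm38.p6), stood at 3.04, 1.51 and 1.71 TPM in parental libraries 1 to 3. It reached 79.7, 69.5 and 71.1 TPM in e1 and 42.01, 38.3 and 41.1 TPM in e2. No library of 1 group overlapped those of another, as for 71.4% of genes tested in e1 against parental, 81.4% in e2 against parental and 76.5% in e2 against e1. The mean of 2.08 ± 0.831 TPM (SD, n = 3) became 73.4 ± 5.47 in e1, 35.2-fold higher, with a log2 fold change of 4.62 ± 0.15 (adjusted p = 5.69e-09). In e2 it was 40.5 ± 1.92, 19.4-fold higher, at 3.78 ± 0.15 (adjusted p = 2.03e-08). Only 30 of the tested genes had a larger positive fold change in e1, and 139 did in e2. Fgfr1 was lower in e2 than in e1 by 1.82-fold (-0.84 ± 0.15, adjusted p = 0.000865). Parental library 1 held the highest parental Fgfr1 level. An antisense gene, Gm16159, shares 164 exonic bases with Fgfr1 and stood at no more than 0.207 TPM.

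Fgfr4, a receptor known best from liver, where it senses an intestinal FGF (chromosome 13, 55152818 to 55168759), stood at 1.33, 2.12 and 2.35 TPM in parental libraries. It was at 0.0523, 0.104 and 0.0247 TPM in e1 and at 0.145, 0.0738 and 0.0729 TPM in e2. Every parental library was above every escape library, and the lines overlapped each other. The fall was -1.45 ± 0.13 in e1 (adjusted p = 4.79e-06) and -1.40 ± 0.13 in e2 (adjusted p = 5.64e-06). With a pseudocount of 0.1 TPM these were -3.66 and -3.35, and in the deposited rlog values -2.34 and -2.21. The difference between the lines was 0.05, with a 95% interval from -0.24 to 0.33 (adjusted p = 0.746).

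Fgfr3 (chromosome 5, 33721724 to 33737068) was low throughout, at 0.714, 1.01 and 0.719 TPM in parental libraries. It stood at 0.183, 0.267 and 0.0907 TPM in e1 and at 0.217, 0.309 and 0.357 TPM in e2. Parental libraries were the highest, and the lines overlapped. It passed no filter, but a fit with no filter gave -0.62 in e1 (adjusted p = 0.000267) and -0.48 in e2 (adjusted p = 0.00111). Fgfr2, whose epithelial form receives Fgf7 and Fgf10 (chromosome 7, 130162451 to 130266808), was at 0.275, 0.229 and 0.21 TPM in parental libraries and at 0.196, 0.225 and 0.143 TPM in e2. It was listed at 0 in all 3 e1 libraries, so no fold is given there, and e2 overlapped parental. In the fit with no filter Fgfr2 was called lower in e1 than in parental (adjusted p = 6.07e-05) and than in e2 (adjusted p = 0.000257). In the GENCODE annotation 314 exonic bases (3.04%) of Fgfr2 are shared with Ctbp2 on the same strand, so the small Fgfr2 values are uncertain. Fgfr3 shares 998 exonic bases (13.9%) with G630022F23Rik on the opposite strand, which is not among the deposited genes. With the strand setting not given, the small Fgfr3 values are uncertain too.

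TPM is corrected for length, so the receptors can be set beside each other. Their sum was 5.07 ± 0.252 TPM in parental, 73.7 ± 5.45 in e1 and 41.0 ± 1.89 in e2 (SD, n = 3). Fgfr1 made up 56.7, 31.0 and 34.2% of it in parental libraries 1 to 3, and Fgfr4 24.8, 43.6 and 47.2%. Parental library 1 was thus led by Fgfr1 and the other parental libraries by Fgfr4. In e1 Fgfr1 made up 99.5 to 99.8% and in e2 98.4 to 98.7%, so nearly all receptor RNA was Fgfr1 in both lines. The table is per gene, and the epithelial and mesenchymal splice forms cannot be told apart in it.

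**Figure D2:**
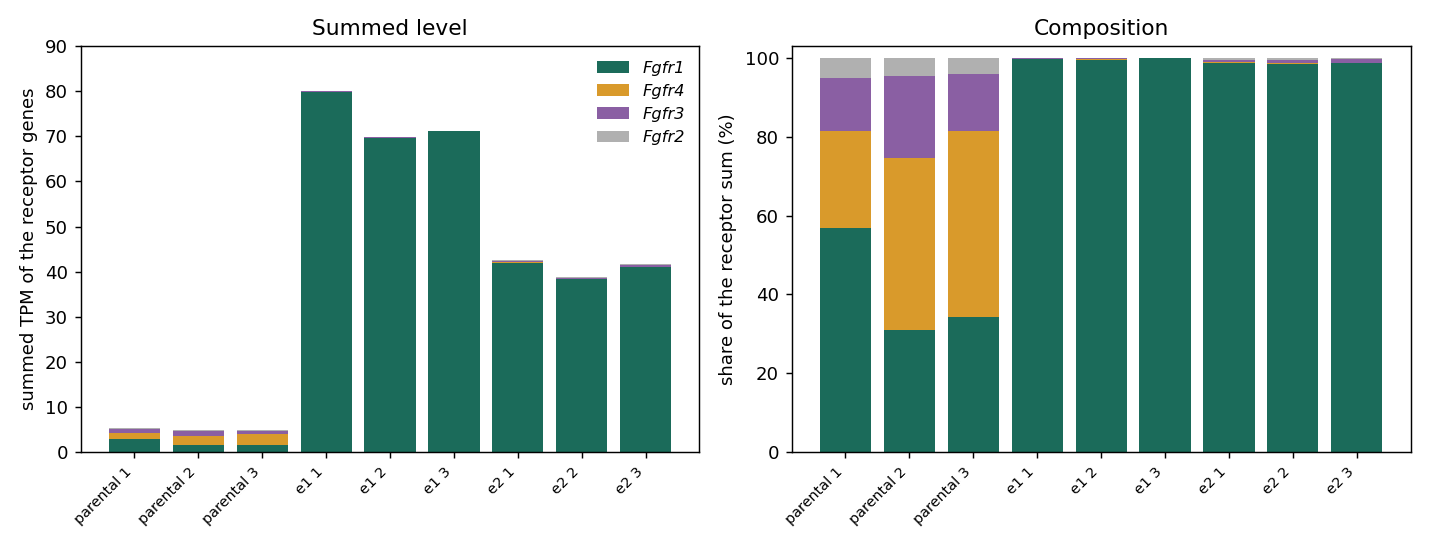
Summed TPM of the 4 receptor genes (left, linear axis) and each receptor's percentage of that sum (right), stacked by gene for each of the 9 libraries. Parental libraries hold mainly Fgfr1 and Fgfr4, with smaller shares of Fgfr3 and Fgfr2, at a low sum. Every escape library consists of Fgfr1 at 98.4% or more.

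Of the 3 member ligands, Fgf1, which can bind every FGF receptor form and lacks a classical secretion signal (chromosome 18), was the highest in parental cells at 8.57, 10.9 and 10.8 TPM. It was at 0.0693, 0.124 and 0.0789 TPM in e1 and at 0.446, 0.528 and 0.522 TPM in e2. All 3 groups were separate. Fgf1 fell by 3.34 ± 0.10 on the log2 scale in e1 (adjusted p = 1.95e-09) and by 2.88 ± 0.10 in e2 (adjusted p = 5.02e-09). Mean levels were 111-fold and 20.2-fold lower than the parental 10.1 ± 1.31 TPM (SD, n = 3). The level in e2 exceeded that in e1 (0.46 ± 0.10, adjusted p = 0.00187). A pseudocount of 0.1 TPM moved the e1 value to -5.74 and the difference between the lines to 1.66.

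Fgf2, a ligand that acts mainly on mesenchymal receptor forms (chromosome 3, 37348477 to 37410106), was listed at 0 in parental libraries 1 and 2 and at 0.276 TPM in library 3. It stood at 3.36, 1.98 and 1.29 TPM in e1 and at 2.06, 2.73 and 1.86 TPM in e2. Every escape library was above every parental one, and e1 library 1 held the highest level. Fgf2 rose by 1.51 ± 0.22 in e1 (adjusted p = 0.000167) and by 1.56 ± 0.22 in e2 (adjusted p = 0.000127). No fold of TPM is given because most parental libraries were at 0. The size depended on the scale, being 3.79 and 3.88 with a pseudocount of 0.1 TPM and 0.78 and 0.76 in the rlog values. Between the lines the difference was 0.05, with a 95% interval from -0.44 to 0.54 (adjusted p = 0.865), and its sign changed with the scaling. On the same strand Gm43439, which is not among the deposited genes, shares 255 exonic bases (3.76%) with Fgf2. The gene Nudt6 lies on the opposite strand and shares 640 exonic bases with Fgf2, 9.44% of the Fgf2 exons. Nudt6 stood at 4.70 ± 1.17 TPM in parental, 15 ± 3.07 in e1 and 11.1 ± 0.728 in e2 (SD, n = 3), and with the strand setting not given, reads of the shared bases cannot be told apart.

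Fgf7, also called keratinocyte growth factor, is a mesenchymal ligand for the epithelial form of Fgfr2 (chromosome 2, 126034658 to 126091185). It was at 0.0721, 0.123 and 0.0579 TPM in parental libraries, at 0.54, 1.24 and 1.88 TPM in e1 and at 1.09, 0.762 and 1.17 TPM in e2. Escape libraries were all above parental ones, with a wide spread in e1, whose library 1 was the lowest. Fgf7 rose by 0.99 ± 0.19 in e1 (adjusted p = 0.0013) and by 0.88 ± 0.19 in e2 (adjusted p = 0.00245), and by 2.71 and 2.58 with a pseudocount of 0.1 TPM. The e2 minus e1 difference of -0.11 was not called (95% interval -0.54 to 0.33, adjusted p = 0.647). It was called at -0.35 without e1 library 1 (adjusted p = 0.0337) and was 0.11 without e1 library 3.

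The share of each ligand in the sum of the 15 paracrine FGF genes shows how the ligand pool was made up. That sum was 12.9 ± 1.04 TPM in parental, 5.21 ± 0.157 in e1 and 5.27 ± 0.387 in e2 (SD, n = 3). Fgf1 made up 73.3 to 80.7% in parental, 1.34 to 2.45% in e1 and 9.13 to 10.0% in e2 libraries. Fgf2 went from at most 2.06% in parental to between 23.9 and 65.0% in e1 and between 32.8 and 51.7% in e2. Fgf7 went from at most 0.907% to between 10.4 and 35.0% in e1 and between 14.5 and 22.2% in e2. Fgf18, no member, made up 7.06 to 10.7% in parental, 14.8 to 31.5% in e1 and 11.2 to 17.0% in e2 libraries. The pool was thus mostly Fgf1 in parental cells and was made up in larger shares of Fgf2, Fgf7 and Fgf18 in both lines. The Fgf18 level itself averaged 1.17, 1.35 and 0.70 TPM in parental, e1 and e2 and was called in neither line, so its larger share went with the smaller sum. Fgf10, under the filter, averaged 0.0372, 0.0302 and 0.483 TPM.

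Fgfbp1, a secreted carrier that releases FGFs from the matrix (chromosome 5, 43978858 to 43981828), was the most abundant member in parental cells at 146, 125 and 118 TPM. It was at 0.868, 0.992 and 1.08 TPM in e1 and at 0.729, 0.649 and 1.0 TPM in e2. Parental and escape libraries were far apart, and the lines overlapped. The mean of 129 ± 14.5 TPM (SD, n = 3) dropped 132-fold in e1 (-6.04 ± 0.10, adjusted p = 1.06e-10) and 163-fold in e2 (-6.18 ± 0.10, adjusted p = 8.03e-11). Only 27 tested genes fell further in e1, and 13 did in e2. Its level passed that of 95.4% of all genes in parental, 53.2% in e1 and 49.6% in e2. Between the lines the difference was -0.15, with a 95% interval from -0.38 to 0.09 (adjusted p = 0.23). Fgfbp3, a related carrier named outside the rule after its values were seen, was at 3.35 ± 0.642, 3.26 ± 0.284 and 2.67 ± 0.27 TPM (SD, n = 3) in parental, e1 and e2 and was not called in e1 (adjusted p = 0.894) or e2 (adjusted p = 0.099). Without parental library 1, Fgfbp3 was called in e2 at -0.36 (adjusted p = 0.00834). Its e2 value was also called with median-ratio scaling (-0.30, adjusted p = 0.032) and in the rlog values (-0.27, adjusted p = 0.0455).

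Promoter sequence is shown for Fgfbp1, the member with the largest fall, and for Fgf7, a member that rose, as RefSeq (GRCm38.p6) gives it. Each window runs from 250 to 30 bases before the start site of the RefSeq promoter table, 5′ to 3′ on the gene's strand, and capitals mark the only motif match found. The Fgfbp1 window is chr5:43981829-43982049 on the minus strand, right beside the gene's annotated span because that start site lies inside the span, and the Fgf7 window is chr2:126034408-126034628 on the plus strand.
Fgfbp1: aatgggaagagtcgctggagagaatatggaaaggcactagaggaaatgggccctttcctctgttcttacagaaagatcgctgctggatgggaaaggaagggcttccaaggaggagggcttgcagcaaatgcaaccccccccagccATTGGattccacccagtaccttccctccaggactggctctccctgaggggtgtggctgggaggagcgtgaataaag
Fgf7: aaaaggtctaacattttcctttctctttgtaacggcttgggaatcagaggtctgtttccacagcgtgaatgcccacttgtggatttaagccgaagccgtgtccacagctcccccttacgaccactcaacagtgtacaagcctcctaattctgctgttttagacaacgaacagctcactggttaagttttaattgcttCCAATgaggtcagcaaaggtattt
Each printed window holds 1 CCAAT box, read on the opposite strand as ATTGG in Fgfbp1. The Fgfr2 window, also clear of annotated exons but not printed, holds no CCAAT box and none of the other motifs searched. Of 32851 windows of the same length, 31.1% hold a CCAAT box. The E-box CAGGTG, the AP-1 motif TGANTCA and the GC box GGGCGG were searched on both strands and are not in these letters, and 15.6, 6.13 and 28.7% of all windows hold them. The GC content was 55.2% for Fgfbp1 and 44.8% for Fgf7, against a median of 52.0%.

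**Figure D3:**
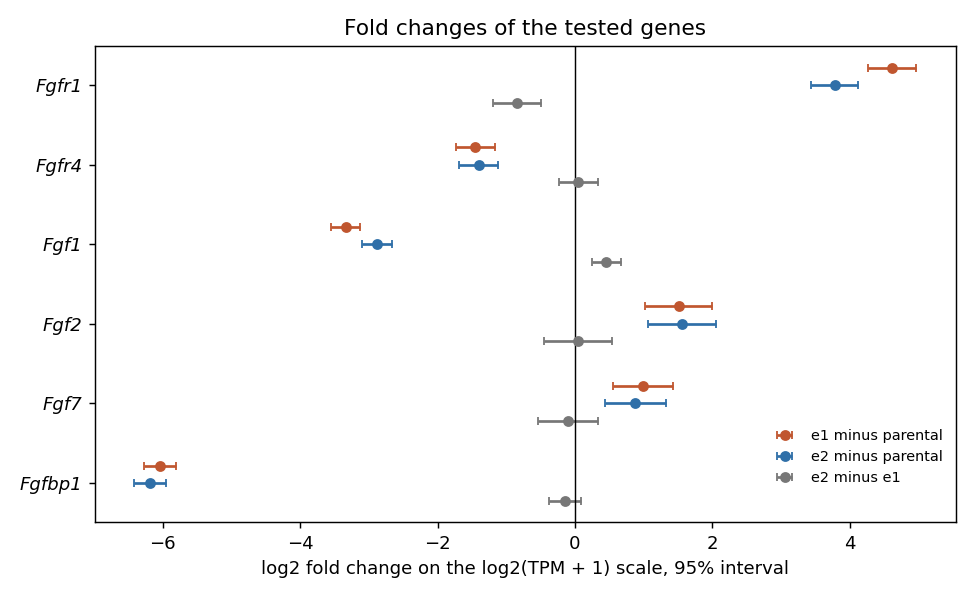
Differences of log2(TPM + 1) of the 6 tested members (horizontal axis), with 95% intervals from limma, for e1 minus parental, e2 minus parental and e2 minus e1. Fgfr1, Fgf2 and Fgf7 lie right of 0 and Fgfr4, Fgf1 and Fgfbp1 left of 0 in both lines, and the e2 minus e1 intervals of Fgfr1 and Fgf1 do not cross 0.

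Ordered by level per length, parental cells held Fgfbp1, then Fgf1, then Fgfr1 and Fgfr4, whose libraries overlapped, then Fgfr3, then Fgfr2, Fgf2 and Fgf7, with Fgf2 overlapping both of the others. In e1 Fgfr1 was far ahead of Fgf2, Fgf7 and Fgfbp1, of which Fgf7 overlapped both others. In e2 the order was Fgfr1, Fgf2, then Fgf7 and Fgfbp1, which overlapped, then Fgf1. Fgfr3, Fgfr2 and Fgfr4 were the lowest in e2, each overlapping the next.

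The genes whose log2(TPM + 1) followed a member most closely over the 9 libraries were taken from 8818 candidates with at least 10 TPM in their highest group. All 9 libraries fall into the same 3 groups, so these correlations mainly carry group means, and no p is given. For Fgfr1 they were Cald1, Col5a1 and Rcn1 (Pearson r from 0.997 to 0.998), and for Fgfr4 Apoc2, Ddc and Sprr2h (0.997 to 0.998). For Fgf1 they were Unc13b, Serpinb5 and Gata5 (0.999 each). Fgf2 was followed by Irgm1, Slc25a37 and Pomgnt1 (0.977 to 0.979) and Fgf7 by Vrk2, Lamtor2 and Htatip2 (0.981 each). Epcam, AI661453 and Klrc1 followed Fgfbp1 (0.9994 to 0.9996), and Epcam, an epithelial adhesion gene, stood at 133, 0.296 and 0.185 TPM on average in parental, e1 and e2.

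Beside the members, 19 other FGF ligand genes were in the table, of which 3 were tested and Fgf3, Fgf4, Fgf6 and Fgf20 were listed at 0 in every library. Fgf13, an intracellular FGF that does not act as a secreted ligand, stood at 18.4, 27.1 and 25.4 TPM in parental libraries and at no more than 0.0437 in e1 and 0.944 in e2. It fell by 4.56 on the log2 scale in e1 (adjusted p = 1.84e-09) and by 3.67 in e2 (adjusted p = 7.11e-09). Fgf11, also intracellular, fell by 0.49 in e1 (adjusted p = 0.00258) and rose by 0.53 in e2 (adjusted p = 0.00157). Fgf18 was called in neither line against parental (adjusted p = 0.653 and 0.102), but it was called in e2 at -0.35 without e1 library 1 (adjusted p = 0.0284) and with the library number as a block (adjusted p = 0.0307).

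Of 13 tested co-receptors, decoys and carriers, 7 rose, 4 fell and 2 were not called in e1 (median 0.85), and 9 rose, 3 fell and 1 was not called in e2 (median 0.87), beside medians over all genes of 0.02 and 0.07. Over all genes tested, 35.7% were called higher and 34.9% lower in e1, and 40.8% and 32.7% in e2. Fgfrl1, a receptor relative without a kinase domain that binds FGFs, fell from 19.2 ± 1.04 to 10.5 ± 0.277 TPM in e1 (adjusted p = 1.47e-06) and rose to 27.7 ± 1.2 in e2 (SD, n = 3; adjusted p = 4.28e-05). The ratio of Fgfr1 to Fgfrl1 was thus 0.107 in parental, 7.02 in e1 and 1.46 in e2. Flrt2, a membrane protein of a family that binds FGF receptors, rose by 3.57 in e1 and 3.56 in e2, while its relative Flrt3 fell by 1.59 and 0.89. The glypican Gpc4, which carries heparan sulfate, rose by 2.31 and 4.45.

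Of 13 genes of heparan sulfate synthesis and trimming, 8 rose, 3 fell and 2 were not called in each line (medians 0.58 and 0.52). Those counts stand beside 70.6% of all genes called in e1 and 73.5% in e2. Sulf2, which strips sulfate groups from finished chains, rose from 0.177 ± 0.214 TPM to 12.2 ± 2.98 in e1 and 74.3 ± 1.69 in e2 (SD, n = 3; log2 fold changes 3.47 and 6.01, adjusted p = 9.73e-08 and 2.19e-09). The sulfotransferase Hs3st1 fell by 4.83 in e1 and 1.07 in e2. Hs6st1 and Hs6st2, sulfotransferases of one type, went opposite ways, with Hs6st1 at -1.05 and 0.46 and Hs6st2 at 2.54 and -0.96 in e1 and e2, all called. Between the lines 6 of the 13 were higher in e2, 5 lower and 2 not called, beside 40.6% higher and 29.7% lower among all genes.

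Of 20 adaptors and signal relay genes, 5 rose, 8 fell and 7 were not called in e1 (median 0.04), and 4 rose, 8 fell and 8 were not called in e2 (median -0.08). The share called over all genes was 70.6% in e1 and 73.5% in e2. Frs2, the adaptor that binds FGF receptors directly, rose by 0.94 in e1 (adjusted p = 4.25e-07) and 0.88 in e2 (adjusted p = 6.15e-07). Mapk3, which encodes an ERK kinase, was called at -0.50 in e1 (adjusted p = 0.022) and 0.55 in e2 (adjusted p = 0.0139). The e1 call was lost without parental library 2 or 3 (adjusted p = 0.0633 and 0.0552) and in a fit of parental and e1 only (adjusted p = 0.0521). Mapk3 stood at 91.9, 154 and 153 TPM in e1 libraries 1 to 3 against 177, 190 and 185 in parental. Its e1 value ran from -0.63 to -0.26 over left-out libraries. Without parental library 2 the 5 that rose in e1 became 3, and without parental library 2, parental library 3 or e2 library 3 the 8 that fell in e2 became 5.

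Of 11 tested feedback inhibitors, 3 rose, 4 fell and 4 were not called in e1 (median -0.03), and 6 rose, 4 fell and 1 was not called in e2 (median 0.40). By comparison, 70.6% of all genes were called in e1 and 73.5% in e2. Spry4 stood at 4.98 ± 0.251 TPM in parental, 6.35 ± 1.96 in e1 and 15.5 ± 0.528 in e2 (SD, n = 3), at 0.27 in e1 (adjusted p = 0.142, called at 0.39 without e1 library 2) and 1.46 in e2 (adjusted p = 1.56e-05). Dusp6, an ERK phosphatase, fell by 0.61 in e1 (adjusted p = 0.000646) and was at -0.04 in e2 (adjusted p = 0.774). Spry2 was called at -0.24 in e1 (adjusted p = 0.0347) and -0.30 in e2 (adjusted p = 0.0138). Its e1 call was lost without parental library 2 or 3, e1 library 2 or 3 or any e2 library, and its e2 call without parental library 2. Dusp5 fell by 0.92 and 1.20 and Spred1 rose by 0.24 and 0.95. In e2 against e1, 6 of the 11 were higher, 2 lower and 3 not called, beside 40.6% higher and 29.7% lower among all genes. The risen count in e1 was 5 without e1 library 2, and the fallen count in e2 was 2 without parental library 2.

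Of 15 genes downstream of ERK, mostly transcription factors, 6 rose, 4 fell and 5 were not called in e1 (median 0.29), and 10 rose, 1 fell and 4 were not called in e2 (median 0.71). Across all genes tested, 35.7% were higher and 34.9% lower in e1, and 40.8% and 32.7% in e2. In e2 against e1, 11 were higher, 1 lower and 3 not called (median 1.06, beside 0.09 over all genes), and without e1 library 3 the lower count was 2. All genes tested were higher in 40.6% and lower in 29.7% of cases there. The cyclin Ccnd1 and the early response gene Ier3 are in this list and are not transcription factors. Ccnd1, named after its values were seen, fell by 0.88 in e1 and rose by 0.78 in e2, and Ier3 fell by 1.88 in e1 and was at -0.13 in e2 (adjusted p = 0.264). Etv1 rose from 0.234 ± 0.136 TPM to 5.8 ± 1.26 in e1 and 34.5 ± 0.946 in e2 (SD, n = 3; log2 fold changes 2.45 and 4.85). Etv4 and Etv5, the members of the same subfamily most used as FGF readouts, were not called in either line. Etv4 was at -0.45 in e1 (adjusted p = 0.0641) and 0.46 in e2 (adjusted p = 0.0579), and Etv5 at 0.30 (adjusted p = 0.0545) and 0.03 (adjusted p = 0.857). Without e1 library 1, Etv4 was called at -0.73 in e1 and Etv5 at 0.13, and Etv5 was also called in e1 without e1 library 2 or 3. Without any of the e1 libraries in turn Etv4 was called in e2. Myc rose by 1.49 in e1 and fell by 0.997 in e2. Egr1, an early response gene, was at 21.3 TPM in parental library 1 against 50.0 and 47.1 in the others. Egr1 was at 0.41 in e1 (adjusted p = 0.208), running from 0.029 to 0.63 over left-out libraries, and rose by 2.66 in e2.

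Among 8 regulators of receptor splicing, 3 rose, 3 fell and 2 were not called in e1 (median -0.04), and 3 rose, 4 fell and 1 was not called in e2 (median -0.19). The calls over all genes came to 70.6% in e1 and 73.5% in e2. Esrp1, which promotes the epithelial receptor forms, stood at 37.1, 29.0 and 28.1 TPM in parental libraries and at no more than 0.041 in any escape library. It fell by 4.98 in e1 (adjusted p = 3.18e-10) and by 4.99 in e2 (adjusted p = 2.95e-10). Its relative Esrp2 fell by 3.81 and 4.37, and Rbfox2, another splicing factor, rose by 1.22 and 1.19. Of the called pathway genes named here, Flrt2, Gpc4, Sulf2, Etv1, Fgf11, Fgf13 and Esrp1 moved by over 1.5 times in e1 with a pseudocount of 0.1 TPM, to 6.46, 3.59, 5.70, 4.19, -1.15, -7.53 and -8.03. In e2 Flrt2, Hs6st2, Fgf11 and Esrp1 did so, to 6.45, -1.59, 0.89 and -8.11.

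**Figure D4:**
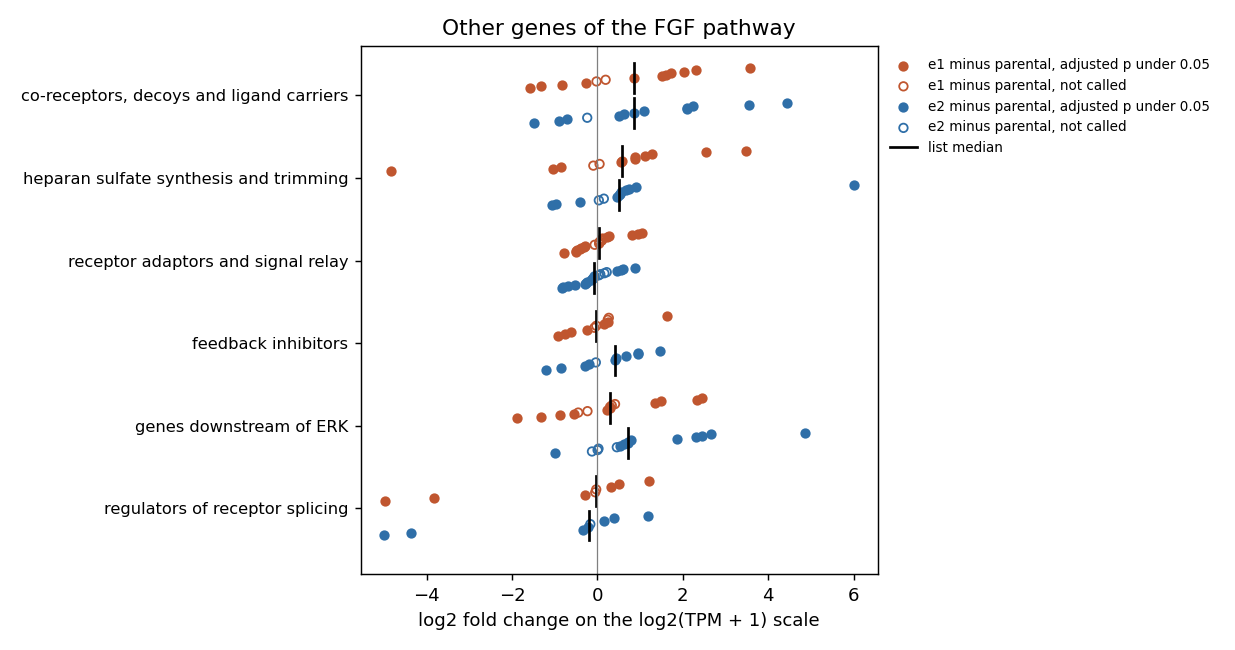
Differences of log2(TPM + 1) (horizontal axis) of the tested genes in 6 FGF pathway lists, for e1 minus parental and e2 minus parental. Filled points passed an adjusted p of 0.05 in limma, open ones did not, and black lines are list medians, which run from -0.04 to 0.85 in e1 and from -0.19 to 0.87 in e2.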

How the data were processed

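A commercial company made the libraries, per the labels' protocols. The authors deposited TPM per gene and, separately, rlog values on a log2 scale. The submitters' processing notes name Salmon, DESeq2 and the mm10 build, with versions, annotation and strand setting not given in the sources used here. Titles of the samples gave groups and library numbers.

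Values were analysed as log2(TPM + 1). A linear model with 3 group means over all 9 libraries was fitted in limma 3.58.1 (R 4.3.3) with robust empirical Bayes and a trended prior, after a filter of 1 TPM in at least 3 libraries. Two-sided p-values were adjusted by the Benjamini-Hochberg method over 12769 genes. The steps were tested on simulated data.

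The members and gene lists were chosen with earlier results of these data known. All members are named, with up to 2 called genes in each direction per list and comparison (5 TPM or more on average where higher) and 9 genes named whatever their result; the text names fewer. Promoter windows were taken for the 6 members with an entry in the RefSeq promoter set (GRCm38.p6). Those overlapping annotated exons, and that of Fgfr2, are not printed.

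The alternatives tried were the rlog table, median-ratio scaling, rescaling without the 10 highest genes, a filter of 5 TPM or none, a pseudocount of 0.1, a fit of the compared groups only, each library left out in turn, a replicate block, and a plain empirical Bayes fit.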

Additional observations from a re-analysis of the deposited data

Results flagged for a closer look

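The effects in the 2 lines differed by the test of e2 against e1 for the genes below, all values being e2 minus e1 on the log2 scale, a comparison in which 70.3% of all genes tested were called. Among members, Fgfr1 was lower in e2 at -0.84 and Fgf1 higher at 0.46. Of the pathway genes named in the text, 9 were called in opposite directions in the lines against parental. Higher in e2 than in e1 were Fgf11 by 1.02, Fgfrl1 by 1.32, Hs6st1 by 1.51, Mapk3 by 1.05, Ccnd1 by 1.66 and Spred3, a feedback inhibitor, by 1.44. Lower in e2 were Hs6st2 at -3.50, Myc at -2.49 and Extl3, which acts in heparan sulfate synthesis, at -1.30. The e1 call of Mapk3 was lost when parental library 2 or 3 was left out and in a fit of parental and e1 only.

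Other pathway genes differed in size, or were called in 1 line only or in neither. Among ligands Fgf13 was at 0.89 and Fgf18 at -0.45, the latter call being lost without any of 6 of the 9 libraries. Among co-receptors and heparan sulfate genes Flrt3 was at 0.69, Gpc4 at 2.14, Sulf2 at 2.54 and Hs3st1 at 3.77. Among feedback inhibitors Spry4 was at 1.20, Spred1 at 0.71 and Dusp6 at 0.57. Among genes downstream of ERK Etv1 was at 2.40, Etv4 at 0.90, Egr1 at 2.25 and Ier3 at 1.76, and the splicing regulator Esrp2 was at -0.56.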

How the results depend on the processing

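All 6 tested members kept their direction and their call against parental in both lines under every alternative that tested them. A filter of 5 TPM left Fgfr1, Fgf1 and Fgfbp1 only, so 3 members were called in e1 and 3 in e2. With no filter 8 were called in e1 and 7 in e2, Fgfr2 and Fgfr3 being added in e1 and Fgfr3 in e2. Leaving out each library in turn gave 6 members called in each line and 2 to 3 between the lines, with 8348 to 9695 genes called in e1, 8683 to 10246 in e2 and 8198 to 9331 between the lines. Differences between the lines changed sign where they were small. For Fgf2 the difference was -0.0067 with median-ratio scaling, -0.019 in the rlog values, -0.17 without e1 library 3 and -0.065 without e2 library 2, with a range from -0.17 to 0.29 over the left-out libraries. For Fgf7 that range was -0.35 to 0.11. Among pathway genes, Dusp6 in e2 against parental was 0.0082 with the 10 highest genes removed and ran from -0.11 to 0.019 over left-out libraries. Etv5 there was -0.058 with median-ratio scaling and -0.060 in the rlog values. In e2 against e1, Spry2 ran from -0.10 to 0.017 and Esrp1 from -0.026 to 0.0033 over left-out libraries, the upper values being without e1 library 1. Flrt2 there ran from -0.032 to 0.013 and was 0.037 with the 10 highest genes removed, where Rbfox2 was 0.015. In e1 against parental, Fgf18 ran from -0.025 to 0.29 and Fgfbp3 from -0.15 to 0.061 over left-out libraries. The cause was not tested. Median-ratio scaling shifted the median of all genes by at most 0.080 in size (-0.012 in e1 and -0.080 in e2 against parental).

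Libraries with the same number did not deviate together, with correlations from -0.130 to 0.050, so no pairing by number was seen. These correlations cannot show a pairing limited to some genes, and whether the numbers pair the libraries is not known. With the number as a replicate block (which also called Fgf18 in e2), 8742, 9163 and 8740 genes and 6, 6 and 2 members were called in e1, e2 and e2 against e1, and the calls of Spry2 (adjusted p = 0.0677) and Spred2 (0.0505) in e1 and Khdrbs1 (0.0512) in e2 against e1 were lost. TPM keeps no depth, so the precision of Fgfr2, Fgf2 and Fgf7 near 0 is unknown.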

Other observations

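The annotated neighbours of the members were looked at after the data were seen, and their values are given with no test. Prom1, a surface marker of epithelial progenitors, lies beside Fgfbp1 on chromosome 5, with 11793 bases between the nearest edges of their annotated spans. Prom1 stood at 91.5 ± 3.32 TPM in parental, 0.0438 ± 0.0447 in e1 and 0.146 ± 0.084 in e2 (SD, n = 3). Cd38, on the other side of Fgfbp1, stood at 2.55 ± 0.9004 TPM in parental, 2.03 ± 0.420 in e1 and 6.33 ± 0.524 in e2. Letm1, a mitochondrial ion transport gene beside Fgfr3, was at 60.4 ± 3.57, 20.0 ± 1.21 and 28.3 ± 0.988 TPM, lower in every escape library than in every parental one, as Fgfr3 was. Letm2, 2760 bases from Fgfr1, was at 0.991 ± 0.144, 1.91 ± 0.0964 and 1.70 ± 0.0546 TPM. Values of the other neighbours are not given here.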
